A study of Mus musculus with 12 samples.

Results

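The change of gene expression in the control mouse heart between 1 and 2 months of age was measured over 18259 genes. The hearts were 6 of the 12 in the series: 3 labelled dflox at 1 month and 3 labelled dflox at 2 months, chosen by their titles. All came from male C57BL/6 mice that carried floxed alleles of the glucocorticoid receptor gene (Nr3c1) and of the mineralocorticoid receptor gene (Nr3c2) and that lacked Cre. They were littermates of cardioGRMRdKO mice, in which αMHC-Cre, active in cardiomyocytes, acts on the same floxed alleles. The other 6 hearts were cardioGRMRdKO, 3 at each age, and are called knockout hearts here. The series text counts mice, so each array is taken as 1 animal. The p-values rest on the spread between arrays of a group, pooled over all 12 arrays of both genotypes. That spread holds any differences of slide or place as well as those between animals. The floxed alleles are therefore common to every heart measured, and no heart with wild-type receptor alleles was used here.

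In the first weeks after birth the mouse heart passes from growth by cell division to growth by enlargement of its cardiomyocytes. Endothelial cells and fibroblasts go on dividing for longer, fibroblasts lay down the collagen and elastic matrix, and the sarcomere, ion channel and metabolic genes of the cardiomyocyte move to their adult forms. Between 1 and 2 months a male mouse also passes through puberty and its immune system matures.

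Whole-genome Agilent arrays held 43379 transcript spots each, of which 63.7% to 71.9% were well above background over the 12 arrays, with 0 saturated spots. Levels are log2 intensities minus the array's 75th percentile, so a level of 0 is that percentile and 1 unit is a doubling. Levels of different genes come from different probes and are not set against each other. The lowest correlation between a pair of hearts over all genes was 0.990 at 1 month and 0.977 at 2 months. The 6 control hearts carried the markers of their tissue: the mean level of 20 cardiomyocyte markers was 7.04, 7.07 and 7.0 at 1 month and 7.04, 7.04 and 6.98 at 2 months. The precision of each value is limited by there being 3 hearts a group, and since whole hearts were used, fewer cells of a type and less RNA per cell cannot be told apart.

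Airway markers differed between hearts of one age. The mean level of 25 airway epithelium markers was −0.54, 0.46 and 0.50 in the 1-month hearts, and −2.67, −3.73 and 0.81 in the 2-month hearts. Scgb1a1, the secretoglobin of airway club cells, stood at 3.74, 4.91 and 4.38 at 1 month and at 1.38, −1.17 and 5.58 at 2 months. So 2 of the 3 older hearts were low and the third was the highest of all 6. Of the 25 markers 24 were below 0 in the age difference, with a median of −2.39, but 0 passed the test, and the groups overlapped for each of them. The 112 genes whose level followed the airway score, the mean of these 25 markers, within groups were therefore set apart. They include 20 of the 25 markers, whose link to the score is built in. The other airway markers and the lung alveolus and cartilage lists were set apart too.

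Among the genes that were lower at 2 months than at 1 month in control hearts were mitotic and matrix genes, and among those that were higher were antigen presentation genes. Elastin (Eln) was 4.0-fold lower, the mitotic activator Cdc20 2.96-fold lower and the fibrillar collagen gene Col1a1 2.36-fold lower. H2-Aa, a chain of a class II antigen-presenting molecule, was 2.80-fold higher, and the water channel gene Aqp8 4.43-fold higher. In limma's test 116 of 18259 genes passed at an adjusted p under 0.05, a share of 0.635%. Of these 57 rose (0.312% of all genes) and 59 fell (0.323%), 70 of them by 2-fold or more. Over all genes the median difference was 0.04 and 56.0% were above 0. For all 116 the measured hearts of one age lay apart from those of the other, which held for 20.1% of all genes. A younger heart is missing for 1 of the 116, 5330439M10Rik.

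None of the 116 was airway-linked and 1, Col11a2 on the cartilage list, was set apart, which left 57 rises and 58 falls. The number of calls depended on the fit. Scaled to the array median, which moves the median of all genes from 0.04 to −0.09, 28 genes rose and 76 fell, and with quantile normalization 61 rose and 98 fell, so the balance of rises and falls depends on the scaling. The count was 3, 111 and 20 without 1-month replicate 1, 2 or 3, and 50, 12 and 19 without 2-month replicate 1, 2 or 3. Without knockout 1-month replicate 3 it was 62. With the 6 dflox arrays alone limma called 0 genes, with 2436 at an unadjusted p under 0.05, against 2549 in the fit over 12 arrays. The younger replicates 2 and 3 lay on slide 2, the older replicates 2 and 3 on slide 3 and both replicates 1 on slide 1, so slide and age largely coincide. With slide as a fixed block 10 genes passed, 9 of them among the 116. In each of these fits all 116 genes kept their direction. Where hearts were left out this was fixed in advance, because the ages do not overlap for any of the 116. The 6 dflox arrays alone, and fits without a knockout heart, keep the same dflox means. With 3 hearts a group, the smallest two-sided p of an exact permutation test is 0.1, so no such test is given for single genes.

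**Figure D1:**
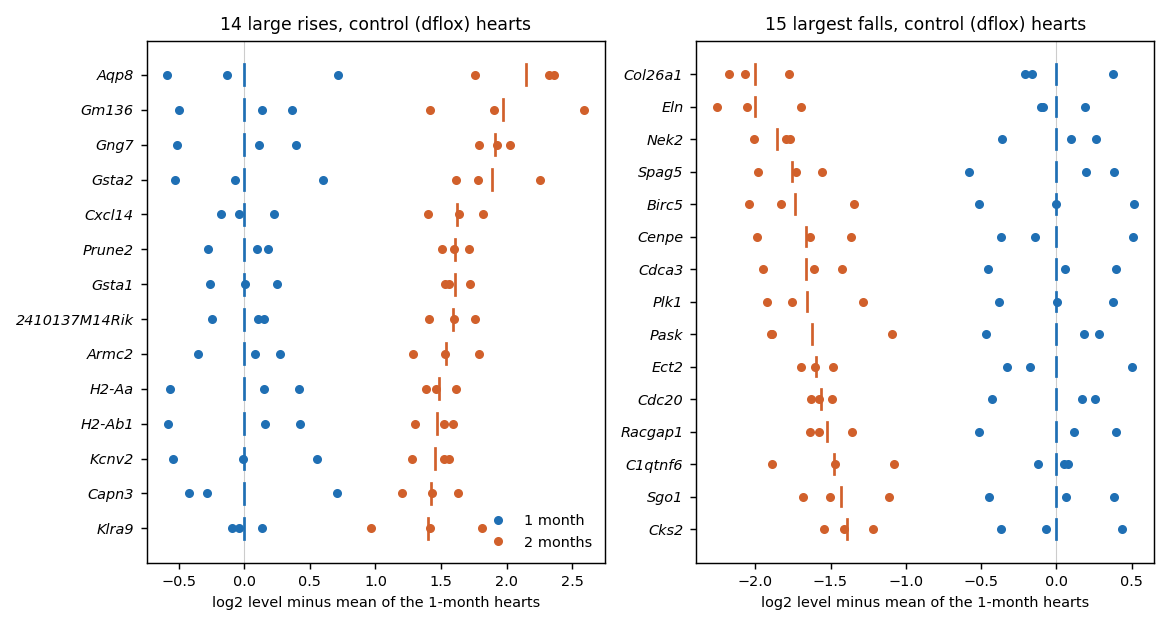
Each point is 1 control heart, plotted as its log2 level minus the mean of the 1-month hearts (blue, 1 month; orange, 2 months; vertical bars, group means, n = 3), for 14 large rises and the 15 largest falls. The ages do not overlap for any of the 29 genes, and differences run from −2.0 (Col26a1) to 2.15 (Aqp8).

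Of 44 measured genes of the mitotic cell cycle and DNA replication 8 fell and 0 rose, 43 were below 0, and the median difference was −1.20 against 0.04 for all genes. In 38 of the 44 the ages did not overlap. Over all genes 0.323% passed as falls and 20.1% had ages that did not overlap. The list's mean level was −0.47, −1.18 and −0.67 at 1 month and −1.95, −1.83 and −2.07 at 2 months, so each older heart lay below each younger one. Within slide 1, which held 1 control heart of each age, the median difference was −1.42.

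Cdc20 activates the ubiquitin ligase that starts chromosome separation. Its level was 1.10, 0.41 and 1.01 at 1 month and −0.79, −0.65 and −0.73 at 2 months (probe at chromosome 4, 117809370 to 117809429, mm7). The older hearts were within 0.14 of each other and below all younger hearts. The log2 difference was −1.56 (SE 0.24, n = 3 and 3, limma adjusted p = 0.0236).

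The kinase gene Plk1 fell 3.15-fold, from −0.36, −1.11 and −0.73 to −2.49, −2.02 and −2.66. Birc5, the survivin of the chromosomal passenger complex, stood at 1.13, 0.11 and 0.62 and then at −1.21, −0.72 and −1.42, a 3.34-fold fall. In both genes 1-month replicate 2 was the lowest of the younger hearts, as it was for the list's mean. The kinetochore motor gene Cenpe fell 3.17-fold, Cdca3, which promotes entry into mitosis, 3.16-fold, and Cks2, a subunit of cyclin-dependent kinases, 2.62-fold. For cytokinesis, Ect2, the exchange factor that activates RhoA at the cleavage furrow, fell 3.02-fold and its partner Racgap1 2.88-fold. The adjusted p of these 7 genes lay between 0.0335 and 0.0489 in limma. A second Ect2 probe gave 0.08, so the fall of Ect2 rests on 1 of its 2 probes, whereas both probes of Cdca3 were lower (−1.66 and −1.31).

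Further division genes stood among the 15 largest falls without being on the list. Nek2, a kinase of centrosome separation, was −2.84, −3.47 and −3.01 in the younger hearts and −4.90, −5.12 and −4.87 in the older ones. It fell 3.62-fold (limma adjusted p = 0.0186). Spag5, a spindle protein gene, fell 3.37-fold, and Sgo1, which protects the cohesion of sister chromatids, 2.70-fold. These sizes depend on the fit: over the alternatives the log2 difference ran from −2.06 to −0.68 for Nek2. For Spag5 it ran from −2.045 to −0.70, and for Sgo1 from −1.68 to −0.86. The proliferation markers Mki67 (difference −1.72, adjusted p = 0.0518) and Top2a (−1.86, 0.0753) did not pass, nor did Cdk1, whose value was −1.81 (0.0502). The replication genes lay nearer to 0: the 6 Mcm helicase subunits ran from −0.98 for Mcm5 to −0.38 for Mcm4, Pcna was at −0.16, and none passed. Cenpa, at 0.47, was the 1 list member above 0 (adjusted p = 0.332).

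Promoters of mitotic genes are known for a cell cycle homology element, TTTGAA, near the start site, often with CCAAT boxes upstream. The RefSeq promoter windows used here run from 250 bases before to 50 after the start (GRCm38.p6), and both strands were searched. TTTGAA was in 19 of the 36 mitotic list promoters at hand (52.8%), against 15.1% of the promoters of all genes tested and 20.2% of all promoters. CCAAT was in 29 of 36 (80.6%), against 42.3% and 41.1%. Of the 8 genes that fell, 5 held TTTGAA. The match nearest to the start of each of the 5 is printed in capitals with 10 bases on each side, 5′ to 3′ on the gene's strand, because these are the fallen mitotic genes that share it. A match describes the letters only.
Cdc20: acagttgggtTTTGAAggagccaatg
Plk1: cagcgccgcgTTTGAAttcggggagg
Cdca3: tggagggaagTTTGAAactccgggct
Ect2: actggattttTTTGAAtcggaggcgg
Racgap1: ggtgcgtgatTTTGAAccggatctgg
They lie at chr4:118437346-118437371 (minus strand), chr7:122159455-122159480 (plus), chr6:124830196-124830221 (plus), chr3:27153824-27153849 (minus) and chr15:99651636-99651661 (minus). The first capital is at −18 from the start in Cdc20 and 5 to 30 bases after it in the others. The Cdc20 window also holds the letters ccaat, which do not overlap the capitals.

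The extracellular matrix was described by lists of collagen and elastic fibre genes. Of 35 collagens and collagen-processing genes 7 fell and 0 rose, 32 were below 0, and the median was −0.62. In 27 the ages did not overlap. The shares over all genes were 0.323% for falls and 20.1% for ages that did not overlap. The list's mean was 2.54, 2.50 and 2.60 in the younger hearts and 1.91, 1.94 and 1.97 in the older, and the median within slide 1 was −0.58.

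Col1a1, the main chain of type I collagen, stood at 5.31, 4.98 and 5.39 at 1 month and at 3.74, 3.98 and 4.23 at 2 months (probe at chromosome 11, 95060800 to 95060859, mm7). The lowest younger heart was 0.75 above the highest older one. The log2 difference was −1.24 (SE 0.15, limma adjusted p = 0.00956), and 2 further probes gave −1.62 and −1.06. Its partner chain Col1a2 fell 1.70-fold. Among the chains of type V collagen, which sets fibril width, Col5a1 fell 1.89-fold and Col5a2 by 0.88 on the log2 scale, and Col6a3, of the pericellular type VI network, fell 1.97-fold. Loxl2, which cross-links collagen and elastin, fell 2.26-fold, from 3.18, 3.06 and 3.39 to 1.98, 2.13 and 2.00. Adamts2, the procollagen N-peptidase, fell by 0.66, and its other probes gave −1.24 to −0.21. A second Col6a3 probe gave −0.49.

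Other members differed without passing. Col3a1, the type III chain, was at 6.02, 5.98 and 6.81 and then at 5.15, 4.87 and 5.45 (difference −1.11, adjusted p = 0.0624). The basement membrane chains Col4a1 and Col4a2 gave −0.75 and −0.68 (adjusted p = 0.10 and 0.0519). Decorin (Dcn), a proteoglycan of the same fibroblasts, gave −0.03, and the prolyl hydroxylase genes P4ha1 and P4ha2 0.04 and 0.42 (adjusted p from 0.325 to 0.925 for the 3). Members of collagen assembly thus lay on both sides of 0.

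Col26a1, a collagen with an EMI domain that is not on the list, fell 4.01-fold, from −0.58, −1.16 and −1.11 to −3.12, −2.72 and −3.02 (limma adjusted p = 0.00956). It was called in 23 of 27 alternative fits. C1qtnf6, of the C1q and tumour necrosis factor-related family, fell 2.79-fold.

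Elastic fibres, which let arteries and valves recoil, have a core of elastin on a scaffold of microfibrils. Of 16 elastic fibre genes measured, 5 fell and 0 rose, where 0.323% of all genes fell, and the median was −0.40. Eln itself stood at 2.26, 2.24 and 2.54 at 1 month and at 0.29, 0.65 and 0.09 at 2 months (probe at chromosome 5, 133674539 to 133674598, mm7). The ages were separated by 1.59 log2 units, and the difference was −2.0 (SE 0.31, limma adjusted p = 0.0230). Genes of the microfibrils also fell: Mfap2 2.22-fold, Mfap4 2.08-fold, Mfap5 2.34-fold and Fbn1, fibrillin-1, 1.90-fold. Mfap2, a microfibril-associated glycoprotein gene, was at 1.95, 1.74 and 1.92 in the younger and 0.67, 0.76 and 0.73 in the older hearts. Its difference was −1.15 (SE 0.10, limma adjusted p = 0.00383), and it passed in 23 of 27 alternative fits, among them all 12 that left out 1 heart. Mfap2 and Col26a1 were the steadiest calls. Of the same 27 fits Col1a1 passed in 20, Igf2 in 16, and Cdc20 and Eln in 14 each. H2-Ab1 passed in 10, H2-Aa in 9, Plk1 and Myh7 in 8 each, and Cenpe and Ect2 in 6 each. Fbn2, the fibrillin of early development, was at −0.96 (0.414), and the latent TGF-β binding protein genes Ltbp1 to Ltbp4 lay between −0.39 and −0.15, with none passing.

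Of 20 fibroblast markers 4 fell and 0 rose, and these were Col1a1, Col1a2, Mfap5 and Cthrc1, a secreted protein gene of activated fibroblasts that fell 2.53-fold. The first 3 are also on the matrix lists, and 0.323% of all genes fell. Pdgfra gave −0.18, Tcf21 −0.37, Dpt −0.35 and Gsn −0.01, with none passing, and the list median was −0.36. Further matrix and growth factor genes that fell, chosen here after their values were seen, were Adamts3 (−0.85; a second probe gave 0.35), Adamts19 (−0.89), Adamtsl2 (−0.96), Mmp2 (−0.57), the peroxidasin gene Pxdn (−0.82), Fstl1 (−0.84) and Ccn4 (−0.99).

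Imprinted growth genes are high in the young and decline with age in many organs. Of 20 measured here 1 fell, where 0.323% of all genes fell. Igf2, a fetal growth factor, was at 3.43, 3.20 and 3.36 at 1 month and at 2.33, 2.52 and 2.39 at 2 months (probe at chromosome 7, 139078075 to 139078135, mm7). The older hearts lay 0.68 or more below the younger, with a difference of −0.92 (SE 0.12, limma adjusted p = 0.0152). A second Igf2 probe gave −1.01. Of the 20, 15 were below 0, with a median of −0.33: Mest at −1.23 (adjusted p = 0.110), H19 at −0.59 (0.246), Meg3 at −0.58 (0.186) and Dlk1 at −0.85 (0.337) did not pass. The member farthest from 0 was Nnat, at 1.5 (0.505): it was −4.08, −3.98 and −3.48 at 1 month and −1.51, −3.94 and −1.59 at 2 months, so 1 older heart was as low as the younger ones. Dlk1 was −4.07 and −4.01 in 2 of the older hearts and −2.51 in the third, which lay above all younger hearts, and a second Dlk1 probe gave −0.30. Of the 16 genes of the insulin-like growth factor system Igf2 alone passed, where 0.635% of all genes passed. Igf1 was at −0.28 (0.406).

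**Figure D2:**
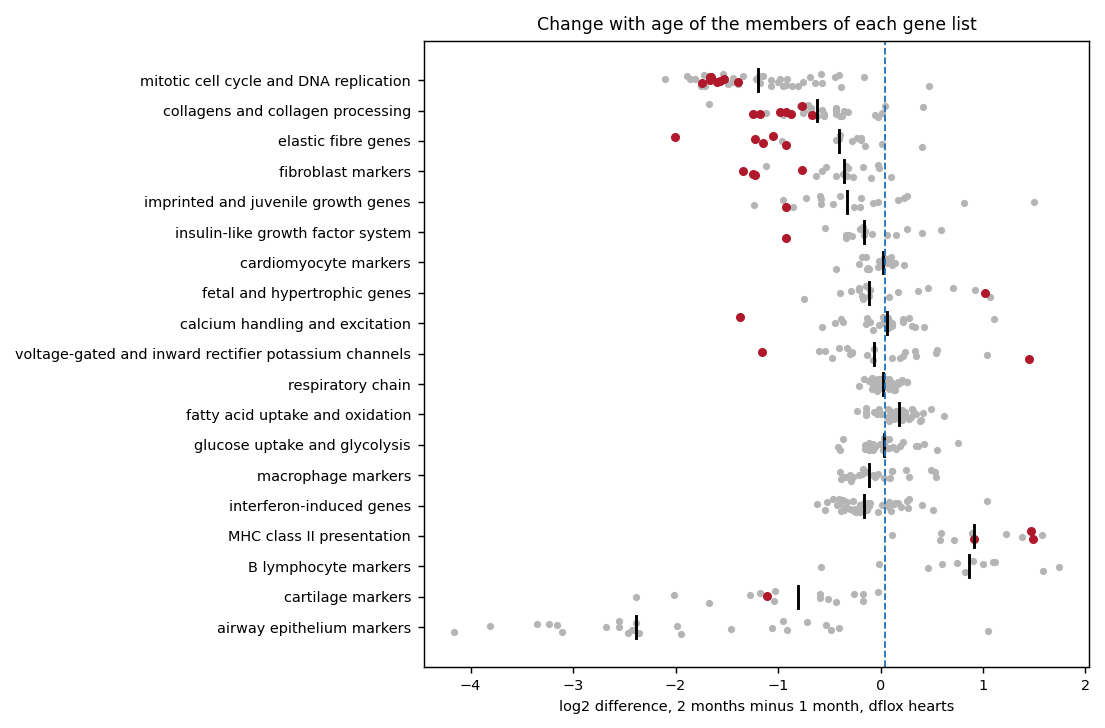
Each point is 1 gene of a list, placed at its log2 difference between 2 and 1 months in control hearts; red points passed the test at an adjusted p under 0.05, black bars are list medians and the dashed line is the median of all 18259 genes (0.04). Mitotic genes (median −1.20) and collagens (−0.62) lie to the left, class II genes (0.91) to the right, and airway and cartilage markers, which were set apart, spread widely to the left.

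Genes of the cardiomyocyte itself had no common direction. Of 20 cardiomyocyte markers 0 passed in either direction, 11 were above 0 and the median was 0.03. The adult myosin gene Myh6 was at −0.43 (adjusted p = 0.423) and troponin I, Tnni3, at 0.23 (0.556). Second probes gave −0.03 for Myh6 and −0.20, the opposite sign, for Tnni3. Single genes of contraction and excitation did pass.

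Myh7, the slow myosin heavy chain that dominates the fetal mouse ventricle, was at 3.57, 3.75 and 3.59 at 1 month and at 4.63, 4.89 and 4.45 at 2 months (probe at chromosome 14, 49837275 to 49837334, mm7). Each older heart was above each younger one. It rose 2.03-fold, a log2 difference of 1.02 (SE 0.18, limma adjusted p = 0.0425), and a second probe gave 1.07. It was the 1 of 19 fetal and hypertrophic genes to pass, where 0.635% of all genes passed. The stress-linked genes Nppb (1.07, adjusted p = 0.126), Ankrd1 (0.92, 0.0594, with 1 older heart missing) and Xirp2 (0.71, 0.0560) were higher without passing. Xirp2 was at 4.76, 4.95 and 4.77 and then at 5.49, 5.58 and 5.54. Nppa was at −0.21 (0.634), Acta1 at 0.37 (0.630) and the fetal troponin Tnni1 at −0.39 (0.337), so the list had no common direction, with a median of −0.11.

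Of 22 potassium channel genes 2 passed, in opposite directions, where 0.635% of all genes passed. Kcnv2 encodes a subunit that is silent alone and modifies other voltage-gated channels. It stood at −2.79, −1.70 and −2.26 at 1 month and at −0.97, −0.72 and −0.69 at 2 months, a 2.74-fold rise (limma adjusted p = 0.0235). Kcne1, the accessory subunit of the slow delayed rectifier, was at 2.10, 1.62 and 1.61 and then at 0.51, 0.74 and 0.62, a 2.23-fold fall (adjusted p = 0.0421). Kcna7, a voltage-gated channel gene that is not on the list and was chosen after its value was seen, rose by 0.79 (adjusted p = 0.0142). Kcnq1, the pore subunit that Kcne1 joins, was at −0.41 (0.0880) and Kcnh2, of the rapid rectifier, at −0.48 (0.174).

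Of 29 calcium handling genes Casq1, the calsequestrin of skeletal muscle, alone passed, where 0.635% of all genes passed. It fell 2.58-fold, from 0.31, 0.26 and −0.14 to −1.25, −1.06 and −1.38 (limma adjusted p = 0.0230). It is also on the list of 18 skeletal muscle markers, of which it was the 1 member to pass and whose mean level lay between −0.77 and −0.40 in all 6 hearts. The median of the calcium list was 0.07. Chosen after their values were seen, the muscle genes Cacna1s (1.31) and Tmod4 (1.01) rose. Capn3, the muscle calpain, rose 2.68-fold on 1 probe, while a second gave 0.22.

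The list of fatty acid uptake and oxidation had 0 of 36 genes past the test, 28 above 0 and a median of 0.18. Its members with the smallest p were the auxiliary oxidation enzyme Decr1 (0.49, adjusted p = 0.128), the trifunctional protein subunit Hadhb (0.39, 0.144) and the fatty acid transporter Cd36 (0.41, 0.183). With scaling to the array median the list's median was 0.05. The 43 respiratory chain genes had a median of 0.02 and the 29 glycolysis genes 0.03, with 0 past the test in each. Chosen after their values were seen, Acsl6, a long-chain acyl-CoA synthetase, rose by 1.26 (limma adjusted p = 0.00383) and Bdh1, the mitochondrial enzyme of ketone body use, by 1.18. In iron handling, likewise seen first, the exporter gene Slc40a1 rose by 0.66 and the transferrin receptor Tfrc fell by 1.03.

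Genes of class II antigen presentation were higher. Class II molecules, made by B cells, dendritic cells and macrophages, show peptides to CD4+ T cells. Of 11 measured genes 3 rose and 0 fell, all 11 were above 0, and the median was 0.91. In 9 the ages did not overlap. Over all genes 0.312% passed as rises and 20.1% had ages that did not overlap. The list's mean was −1.60, −0.92 and −1.24 at 1 month and −0.19, −0.32 and −0.27 at 2 months, with 1-month replicate 1 the lowest.

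H2-Ab1, a β chain, was at 1.5, 2.51 and 2.24 in the younger hearts and at 3.61, 3.38 and 3.67 in the older (probe at chromosome 17, 32346939 to 32346998, mm7). The lowest older heart was 0.88 above the highest younger one. The difference was 1.47 (SE 0.25, limma adjusted p = 0.0389), and its other 3 probes gave 1.33 to 1.51. H2-Aa, the paired α chain, rose 2.80-fold and H2-DMb1, of the peptide-loading complex, 1.88-fold. H2-Eb1 (1.58, adjusted p = 0.0560), the invariant chain Cd74 (1.38, 0.113) and the class II transactivator Ciita (1.22, 0.162) were higher without passing.

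Class II promoters carry a CCAAT box, here read on the opposite strand as ATTGG, as part of a conserved upstream module. CCAAT on either strand was in 7 of the 8 class II promoters at hand (87.5%), against 42.3% of the promoters of all genes tested. Of the 3 genes that rose, 2 had a promoter at hand, and both held it; the windows are shown because they place the box at a like distance in both.
H2-Aa: gaattttctgATTGGttctggcgagt
H2-DMb1: tcactcagtgATTGGtctgacctgcc
They lie at chr17:34287856-34287881 (minus strand) and chr17:34153120-34153145 (plus strand) of GRCm38.p6, with the first capital 48 and 61 bases before the start (−48 and −61).

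The cell types that could carry class II genes gave the following values. Of 12 B lymphocyte markers 10 were above 0, with a median of 0.86 and 0 past the test, and their mean went from −2.97, −2.88 and −2.66 to −1.91, −2.09 and −2.14. Cd79a was at −5.19, −6.50 and −5.24 and then at −5.07, −4.17 and −4.40, and was well above background in 2 of the 3 younger hearts. Of 24 macrophage markers 9 were above 0, the median was −0.11 and 0 passed; Ccr2 was at 0.53 (adjusted p = 0.198) and Mrc1 at −0.36 (0.246). Of 17 T lymphocyte and thymus markers 0 passed (median 0.14). Off the list, and chosen after their values were seen, 2 genes of the B lineage rose: the immunoglobulin heavy chain gene Igh-1a by 2.12 (limma adjusted p = 0.0487; 2.47 in knockout hearts) and Vpreb2, of the surrogate light chain, by 0.92 (0.0142). Both belong to families of like sequence. The part of these cells in the class II values was not tested. The 42 interferon-induced genes, with 0 past the test, had a median of −0.16.

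**Figure D3:**
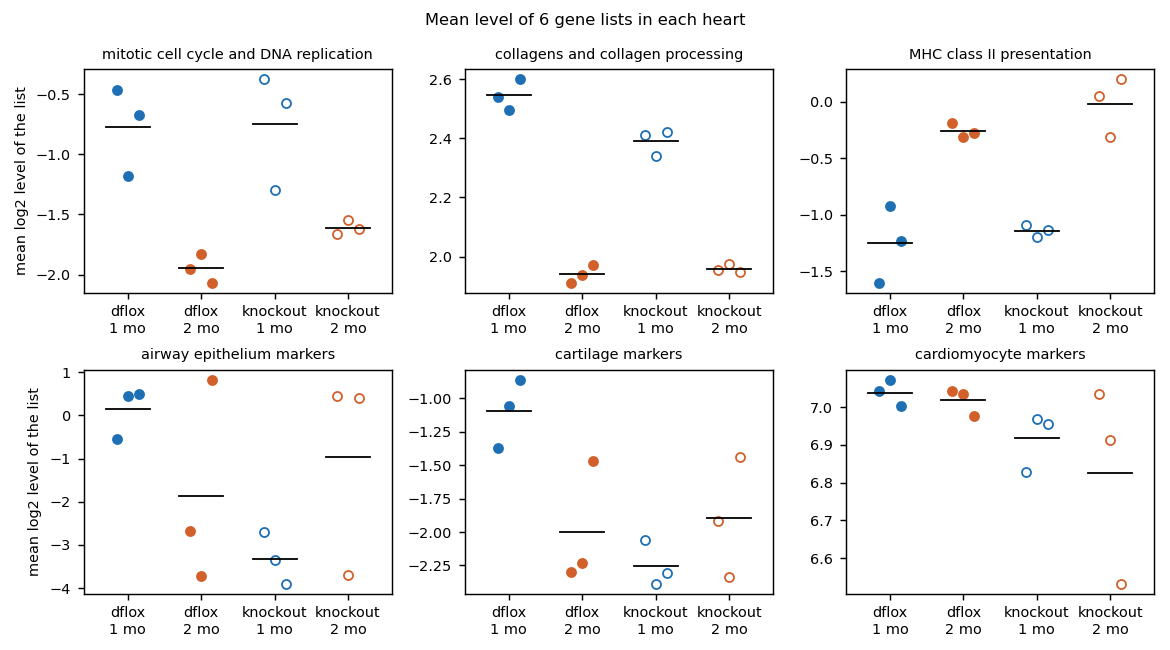
Each point is the mean log2 level of a gene list in 1 heart (filled, dflox; open, knockout; blue, 1 month; orange, 2 months; bars, means of 3 hearts), with a scale of its own in each panel. Mitotic, collagen and class II lists separate the ages in both genotypes, whereas the airway list separates hearts within an age, and cardiomyocyte markers stay between 6.98 and 7.07 in the dflox hearts.

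The remaining large rises belonged to varied genes. Aqp8 rose 4.43-fold, from −2.36, −1.06 and −1.91 to −0.02, 0.54 and 0.58. The glutathione S-transferase genes Gsta1 and Gsta2 rose 3.04-fold and 3.70-fold (limma adjusted p = 0.00956 and 0.0186). They are near-identical, so each probe may read both. Cxcl14, a chemokine gene, rose 3.07-fold, from 0.71, 1.12 and 0.85 to 2.71, 2.53 and 2.30, and Prune2 3.05-fold. Gng7, a G protein γ subunit gene, was not well above background in the younger hearts and was so in the 3 older ones. It was at least 1.84-fold higher, that is, against the lowest signal well above background on each younger array (adjusted p = 0.00956). Klra9, of the natural killer cell receptor family Ly49, rose 2.64-fold. Its family members are alike in sequence, and the same holds for its relatives among the rises. Gm136 (3.92-fold), 2410137M14Rik (3.01-fold) and Armc2 (2.90-fold) also rose, but were well above background in 1, 2 and 2 of the 3 younger hearts, so these folds rest in part on signals near background, and a second Armc2 probe gave 0.52. Among the falls, Pask, the PAS domain kinase gene, fell 3.08-fold.

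Several other lists gave no passing gene. Of 21 clock and clock output genes 0 passed. Dbp, an output of the clock, was at 6.57, 6.02 and 6.57 and then at 6.23, 4.15 and 6.67, and Arntl at −1.85, −0.92 and −2.05 and then at −0.87, 0.67 and −1.38. In both genes replicate 2 stood apart at 2 months, low in Dbp and high in Arntl; the hour of collection is not given in the sources used here. Per2 differed between its probes, at −0.85 and 1.08. Of 27 glucocorticoid receptor targets 0 passed, with a median of −0.16. Of the receptor genes themselves, Nr3c1 differed by 0.18 (adjusted p = 0.624, with 1 younger heart missing; its other 3 probes gave 0.09 to 0.19) and Nr3c2 by 0.22 (0.860). Immediate early genes were below 0 in 19 of 21, with a median of −0.39, and their mean in the younger hearts ran from 0.06 to 1.16, which spans all 3 older hearts. Heat shock and unfolded protein genes were above 0 in 25 of 29, with a median of 0.16. No gene of either list passed. Endothelial (median −0.15), smooth muscle (−0.16), epicardial and valve (−0.24), and Schwann cell and neuron markers (−0.14) had 0 genes past the test. Of 12 brown fat markers 0 passed and 7 were below 0, with a median of −0.31. Their mean was 2.44, 2.80 and 2.41 at 1 month and 1.95, 1.53 and 2.16 at 2 months. The mean of 16 white fat markers, with 0 past the test, ran from 1.20 to 2.94 in the older hearts. The fat lists were not set apart.

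Cartilage markers were below 0 in 16 of 16 genes, with a median of −0.81. Their mean was −1.37, −1.06 and −0.87 at 1 month and −2.30, −2.23 and −1.47 at 2 months, with the older heart that was high in airway markers again the highest of its age. Without the 2 older hearts low in airway markers the cartilage median was −0.17 and that of the airway list 0.61. Under the same omission the mitotic median was −1.40, the collagen median −0.60 and the class II median 0.79. Limma then called 0 genes, with 2553 at an unadjusted p under 0.05 and a single older heart, assumed to vary like the other groups. All 116 genes kept their direction, at a median of 0.991 times the size. The direction was fixed in advance here, because the ages do not overlap for any of the 116. With the airway score as a covariate 19 genes passed and all 116 kept their direction, at a median of 0.994 times the size. Col11a2, the called cartilage gene, fell 2.16-fold on its brightest probe while a second gave 0.91.

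The same interval was then read in the knockout hearts, which share no animal with the controls. There 64 genes passed (0.351%). Of the 116 genes that passed in dflox hearts 115 had the same sign in knockout hearts, 56 of 57 rises and 59 of 59 falls, against 63.8% of all genes. The exception was Slc40a1 (−0.09 in knockout hearts). Of the 116, 32 also passed there in the same direction and 0 in the opposite one. The median of the rises was 1.23 in dflox and 0.73 in knockout hearts, and that of the falls −1.11 and −0.80. The genes were picked for passing in dflox hearts, so the medians of the 2 genotypes are not a like-for-like comparison. Airway markers went the other way in knockout hearts, with means of −2.71, −3.35 and −3.90 at 1 month and 0.44, −3.71 and 0.40 at 2 months.

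The main lists had the same direction in knockout hearts. The mitotic median was −0.89 in knockout hearts with 43 of 44 genes below 0, the collagen median −0.42 and the class II median 1.21. Cdc20 was at 1.04, 0.05 and 0.77 and then at −0.47, −0.54 and −0.54. Col1a1 was at 4.94, 4.85 and 5.01 and then at 3.78, 3.98 and 3.82. In each gene the ages did not overlap.

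The difference of the age change between genotypes was tested for every gene, and limma called 0 (0%). At an unadjusted p under 0.05 there were 645 of 18259 genes, less than a share of 0.05, with 30 of them among the 116. The smallest adjusted p was 0.951. For several genes picked among the 116 the unadjusted interval of the difference did not include 0, though the test did not pass. The 116 were picked on their dflox change, which is part of this difference. The picking pushes such intervals, and the count of 30, away from what unpicked genes would give. Kcnv2 changed by 0.16 in knockout hearts, where it stood between −4.73 and −4.38 throughout, and its difference in change was −1.30 (95% interval −2.0 to −0.59). Casq1 changed by −0.07 there, with a difference of 1.30 (0.64 to 1.95). Myh7, already between 7.08 and 7.39 in the knockout hearts at 1 month, changed by 0.19, with a difference of −0.83 (−1.40 to −0.26). For Col1a1 the difference was 0.17 (−0.30 to 0.63), for Igf2 0.13 (−0.26 to 0.52), for Mfap2 0.08 (−0.22 to 0.38) and for H2-Ab1 −0.10 (−0.90 to 0.69).

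**Figure D4:**
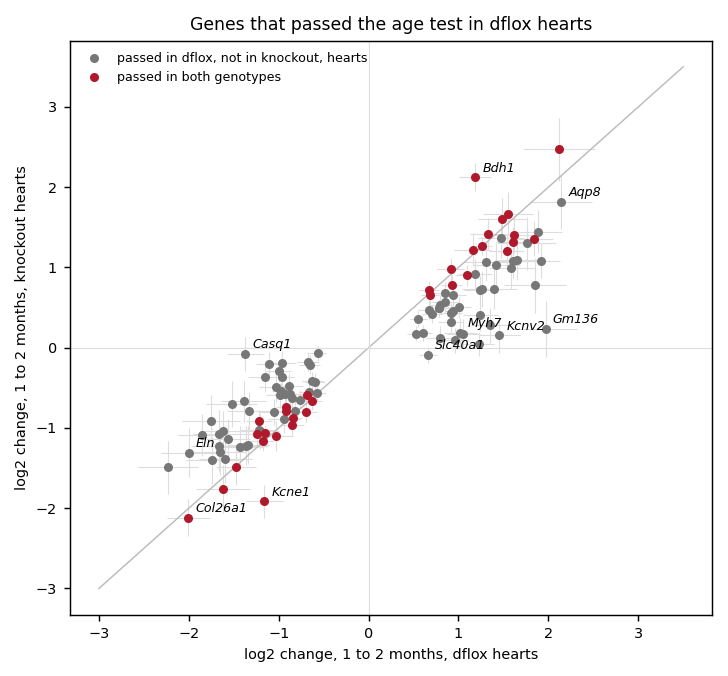
Each point is 1 of 115 genes that passed in dflox hearts, with its log2 change from 1 to 2 months in dflox hearts (x axis) and in knockout hearts (y axis); bars are standard errors from limma, the line marks equal change, and red points passed in both genotypes (32 genes). All but Slc40a1 lie on the same side of 0 on both axes, and Gm136, Kcnv2 and Casq1 lie far from the line.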

How the data were processed

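RNA of 12 whole mouse hearts (RNeasy columns with DNase, 500 ng) was labelled with Cy3 and read on 1-colour Agilent arrays, per the labels' protocols. The authors deposited scanner files with a processed intensity per spot on a linear scale, background-corrected by Agilent Feature Extraction (9.5 per the submitters' processing notes, 9.5.3.1 by the header of each file). A value table that the authors also deposited repeats this intensity in 100% of spots, without scaling between arrays. Probe coordinates are mm7, per the file headers; its annotation was not used here, so exons and UTRs are not given.

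Control and outlier spots were left out, log2 intensities minus each array's 75th percentile were taken, and spots of a probe averaged. Of 41174 probes 26979 were kept, which had every array of some group well above background. Names came from RefSeq accessions (22951 probes), other accessions (131), current (6582) or older (3065) symbols; 8445 kept the file's name. The brightest probe stood for a gene, which left 18259 genes, 477 of them with a missing value.

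Limma 3.58.1 (R 4.3.3 and the data.table package, version 1.17.8) fitted 4 group means to all 12 arrays; tests were two-sided with Benjamini-Hochberg adjustment over all genes, at 0.05. The procedure was tested on simulated data with independent values for each gene and array. These held no slide, place or airway differences, so the simulation cannot show how such differences affect the calls. Errors are limma's SE. The named genes are the 15 largest rises and falls among called genes measured above background in each heart of the brighter age, without overlap, with a symbol and not set apart, up to 4 genes of each list with the smallest p, and a fixed set of heart, clock and receptor genes. A gene that met this rule is not reported here, in the text or the plots. Members and lists were chosen with earlier results of these data known. Lists overlap in 52 genes and got counts and medians, with no test. Promoters are RefSeq's (GRCm38.p6), matched for 12009 genes tested. Alternatives covered background correction, scaling, filter, probes, slide, place, airway score, replicate number and left-out hearts. The following were chosen after seeing the data: leaving out the 2 low-airway hearts, and leaving out the airway, alveolus and cartilage lists with airway-linked genes.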

Additional observations from a re-analysis of the deposited data

How the results depend on the processing

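In every alternative fit all genes called over 12 arrays that were present kept their direction, except Eprn when all probes of a gene were averaged (0.93, adjusted p = 0.377, against −1.0). In fits that left out hearts the direction could not change, because the ages do not overlap for any of the 116. The counts differed between fits. Against 116 calls (57 higher, 59 lower), normexp gave 61 (27 and 34), quantile normalization 98 lower, the array median 28 higher, no filter on dim probes 17 (9 and 8) and a filter on all 12 arrays 177 (97 lower). With normexp the changes of the 116 genes were also smaller, at a median of 0.742 times the size. Slide as a fixed block gave 10 (5 and 5), place on the slide 29 (16 and 13), the airway score 19 (8 and 11) and leaving out slide 3 gave 32 (13 and 19). The 6 dflox arrays alone, and leaving out the 2 older hearts low in airway markers, gave 0 in each direction. Slide as a random block (107 calls), averaged probes (99) and setting airway-linked and listed genes apart (115) stayed within 1.5 times. Leaving out 1 heart gave 3 to 146 calls, 2 to 68 higher and 1 to 91 lower. The test of the difference between genotypes called 1 gene with place as a covariate and 136 without slide 3, where 1 dflox heart remains at 2 months, and 0 in the other alternatives. The cause of these moves was not tested. Within slide 1 all 116 genes kept their direction, at a median of 1.10 times the size, with no test. That direction was also fixed in advance, because the hearts of slide 1 are part of the main fit and the ages do not overlap for any of the 116.

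The replicate numbers were not taken as pairs. Same-numbered dflox hearts had correlations of deviations of 0.184, 0.103 and 0.0779. Hearts of different number were not compared in this way, so these values cannot settle whether the numbers pair the hearts. With the replicate number as a block over 12 arrays 73 genes were called (42 higher, 31 lower), and with the 6 dflox arrays 0 (0 higher and 0 lower; 2265 at an unadjusted p under 0.05).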
